A study of Homo sapiens with 6 samples.

Results

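Cholesterol synthesis and sterol response is described here as a list of 28 genes, out of 60664 genes in the deposited table. They were listed by name for what they encode, with earlier results of these data known, and all 28 were found by their current symbol. 18 of them encode enzymes of the route from acetyl-CoA to cholesterol, 5 encode the sensors and transcription factors that control it, and 5 encode proteins that move or export sterols. All 28 had enough counts to be tested. The libraries are labelled as HCT8, a human colorectal cancer cell line grown in medium with fetal bovine serum. 3 libraries came from HCT8 cells transfected with a GPT1 overexpression plasmid and 3 from HCT8 cells of genotype WT transfected with a control plasmid, so that both groups went through transfection. GPT1 is encoded by GPT and is an alanine aminotransferase of the cytosol, and the stated aim of the series was to find the signalling that it regulates in colorectal cancer. The labels do not give the time after transfection, the promoter of the plasmid, or whether the libraries came from separate cultures, so the p-values measure only the spread between these libraries, which may be technical.

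Cells build cholesterol from acetyl-CoA in the cytosol and endoplasmic reticulum. The mevalonate arm makes isoprenoid units that also feed protein prenylation, ubiquinone and dolichol; squalene synthesis then commits carbon to sterols, and a series of tailoring enzymes turns lanosterol into cholesterol. When sterols are low, SCAP carries the SREBP transcription factors from the endoplasmic reticulum to the Golgi, where proteases release their active part, which turns on genes of synthesis and uptake. When sterols are high, the INSIG proteins hold SCAP back, and oxysterols activate the LXR receptors, which turn on efflux genes. SREBP activity is set largely by proteolysis, which counts of mRNA do not show.

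Promoter sequences of 6 of the genes are shown so that the letters which SREBPs and their partner NF-Y are known to bind can be seen beside the values. MVK, FDPS and NSDHL are enzyme genes that were higher in the GPT1 libraries. HMGCS1 is an enzyme gene whose groups overlapped, and INSIG1 a regulator induced by SREBPs that was lower. SREBF2 is the gene of SREBP-2 itself, whose groups overlapped too. Each window runs 5′ to 3′ on the gene's strand from 250 bases before to 50 bases after a RefSeq start (GRCh38.p14). The windows are MVK (chr12:109573544-109573843, plus strand), FDPS (chr1:155308616-155308915, plus strand), NSDHL (chrX:152830813-152831112, plus strand), HMGCS1 (chr5:43313363-43313662, minus strand), INSIG1 (chr7:155297628-155297927, plus strand) and SREBF2 (chr22:41832855-41833154, plus strand). Capitals mark CCAAT, the NF-Y letters, on either strand (ATTGG on the other strand). In INSIG1 they also mark CACGTG, the E-box letters, and in SREBF2 the letters TCACNCCAC of a sterol regulatory element. In NSDHL 2 CCAAT matches on opposite strands overlap and form 1 run of capitals.
MVK: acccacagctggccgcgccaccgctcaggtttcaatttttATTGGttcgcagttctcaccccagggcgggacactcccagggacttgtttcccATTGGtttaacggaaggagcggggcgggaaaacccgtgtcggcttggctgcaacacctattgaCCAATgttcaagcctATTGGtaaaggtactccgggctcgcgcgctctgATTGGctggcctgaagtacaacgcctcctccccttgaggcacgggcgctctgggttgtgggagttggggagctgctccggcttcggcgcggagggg
FDPS: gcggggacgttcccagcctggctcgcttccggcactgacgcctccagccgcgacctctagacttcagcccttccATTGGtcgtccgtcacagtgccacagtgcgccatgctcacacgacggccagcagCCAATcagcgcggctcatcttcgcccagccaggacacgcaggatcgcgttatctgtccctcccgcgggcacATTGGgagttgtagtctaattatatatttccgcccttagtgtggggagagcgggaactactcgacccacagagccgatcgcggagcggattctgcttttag
NSDHL: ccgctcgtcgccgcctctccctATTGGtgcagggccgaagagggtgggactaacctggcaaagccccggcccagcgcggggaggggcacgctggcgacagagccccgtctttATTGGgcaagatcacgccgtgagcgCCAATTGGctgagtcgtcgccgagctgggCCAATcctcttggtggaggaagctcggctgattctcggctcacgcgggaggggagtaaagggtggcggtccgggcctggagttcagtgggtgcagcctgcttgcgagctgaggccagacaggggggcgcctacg
HMGCS1: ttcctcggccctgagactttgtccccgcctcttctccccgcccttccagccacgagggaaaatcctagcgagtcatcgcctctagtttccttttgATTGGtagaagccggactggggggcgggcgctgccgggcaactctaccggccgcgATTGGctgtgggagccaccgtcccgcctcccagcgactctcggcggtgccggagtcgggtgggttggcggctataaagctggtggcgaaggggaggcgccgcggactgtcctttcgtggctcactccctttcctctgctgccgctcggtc
INSIG1: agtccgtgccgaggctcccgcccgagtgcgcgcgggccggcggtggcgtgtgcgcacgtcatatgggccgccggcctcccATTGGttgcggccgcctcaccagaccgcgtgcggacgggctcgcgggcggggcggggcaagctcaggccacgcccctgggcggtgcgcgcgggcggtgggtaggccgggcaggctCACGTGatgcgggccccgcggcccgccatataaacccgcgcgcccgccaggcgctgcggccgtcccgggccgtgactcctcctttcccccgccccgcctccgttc
SREBF2: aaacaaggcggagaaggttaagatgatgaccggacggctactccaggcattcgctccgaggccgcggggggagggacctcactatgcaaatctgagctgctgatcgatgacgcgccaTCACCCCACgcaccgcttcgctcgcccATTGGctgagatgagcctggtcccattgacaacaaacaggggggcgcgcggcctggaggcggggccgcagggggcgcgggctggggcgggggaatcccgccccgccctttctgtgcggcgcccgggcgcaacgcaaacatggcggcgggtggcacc

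CCAAT was frequent in these windows. The RefSeq table held 31 windows for 24 of the 28 genes, and ACAT2, FDFT1, SQLE and ABCG1 had none. CCAAT stood on either strand in 19 of the 31 windows (61.3%), against 34.6% of all 35116 windows of the same length. Among the enzyme genes 13 of 15 with a window held it, among them MVK, FDPS and NSDHL, which were higher, and HMGCS1, IDI1 and MVD, whose groups overlapped. CACGTG stood in 6 windows, of ABCA1, INSIG1, LSS, SC5D and SCAP, which is 19.4% against 7.26% of all windows. Windows of 1 gene can overlap, and the same CACGTG and the same CCAAT of SC5D were each counted in more than 1 window. TCACNCCAC stood in the SREBF2 window alone (3.23% of the 31 windows, against 1.13% of all windows). Only these exact letters were searched, N being any base, so a sterol regulatory element with other letters would be missed. These are matches of letters; binding was not measured, and the plasmid's effect on it is not known from these data.

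The introns of SREBF1 and SREBF2 also hold microRNA genes, MIR33B and MIR33A, whose products are known to repress the efflux gene ABCA1. Their mature sequences share the seed, bases 2 to 8, shown in capitals (MIR33A chr22:41900949-41900969, plus strand; MIR33B chr17:17813897-17813916, minus strand; RefSeq, GRCh38.p14).
hsa-miR-33a-5p: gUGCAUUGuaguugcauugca
hsa-miR-33b-5p: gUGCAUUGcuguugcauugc
These mRNA libraries are not made to hold mature microRNAs. MIR33B had 1 count in GPT1 replicate 3 and 0 in the other 5 libraries, and MIR33A had 0 counts in all 6 libraries, so nothing is known here of their levels.

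The total counts were 30370654 to 31513656 in the GPT1 libraries and 21255655 to 32487217 in the controls, control replicate 3 being the shallowest. Levels are given as CPM, read counts scaled to library size with TMM factors, and genes were compared with edgeR's quasi-likelihood test with Benjamini-Hochberg adjustment over 17638 tested genes; a gene is called at an adjusted p under 0.05. GPT, the overexpressed gene, had 105529, 96886 and 106063 counts in the GPT1 libraries and 9, 14 and 3 counts in the controls (log2 fold change 13.42 ± 0.19 SE, adjusted p = 1.225e-11, edgeR). Of the colorectal markers, CDX2 stood at 45.3 ± 3.56 CPM in the GPT1 libraries and 41.7 ± 4.47 CPM in the controls (SD, n = 3 each), whereas KRT20, CEACAM5 and CDX1 averaged at most 0.109 CPM in either group and GPA33 0.303 and 0.180 CPM. The summed level of the 13 colorectal epithelial markers ranged from 562 to 633 CPM in the GPT1 libraries and from 886 to 1040.0 CPM in the controls, and 8 of its 9 tested genes were lower. The 9 kidney-line and neural markers summed to 256 to 263 CPM in the GPT1 libraries and 468 to 556 CPM in the controls, 3 of 8 tested genes being lower, among them the neurofilament genes NEFM (104 ± 3.33 CPM in the GPT1 libraries and 293 ± 41.7 CPM in the controls) and NEFL. Other members of both lists stood at other levels. KRT8 averaged 352 CPM in the GPT1 libraries and 529 CPM in the controls, and KRT18 171 and 261 CPM. KRT19 (11.4 and 51.2 CPM), CDH1 (12.5 and 50.1 CPM) and EPCAM (9.28 and 24.9 CPM) were detected as well. STMN2, PAX8 and TUBB3 averaged at most 0.753 CPM in either group. INA, of the same list, went the other way, at 61.1 ± 1.61 CPM in the GPT1 libraries and 51.9 ± 1.12 CPM in the controls. Its groups did not overlap, but it was not called (log2 fold change 0.24 ± 0.09 SE, adjusted p = 0.0633, edgeR). The epithelial markers were thus mixed in level, some well detected and others near 0. In direction they were not mixed, since 8 of the 9 tested genes were lower. Neurofilament genes at this level are unusual for a colorectal line, and the identity of the line was not tested. The 9 fibroblast markers summed to 60.9 to 62.4 CPM in the GPT1 libraries and 50.5 to 53.7 CPM in the controls, with FAP and THY1 at 0 and 2 of 5 tested genes higher. The leukocyte list (3.34 to 3.84 CPM in the GPT1 libraries, 3.78 to 4.67 CPM in the controls, 1 of 3 tested genes lower, CD3E at 0), the endothelial list (0.386 to 0.951 and 0.159 to 0.277 CPM, none tested) and the hepatocyte list (0.773 to 1.15 and 2.95 to 4.67 CPM, 1 of 2 tested genes lower) were at low levels. The part that these shifts have in the sterol results was not tested. In bulk libraries fewer cells of a kind and less RNA per cell cannot be told apart.

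The changes of the sterol genes were small, and the share of them called was close to that of the whole table. 8 of the 28 genes were called (28.6%), against 25.1% of all tested genes. 6 of them were higher (21.4%, against 10.5% of all tested genes) and 2 lower (7.14%, against 14.6%). The libraries of the groups did not overlap for 12 of the 28 genes (42.9%), against 43.4% of all tested genes; 9 lay higher and 3 lower in the GPT1 libraries, where the shares of all tested genes were 21.2% and 22.2%. The median log2 fold change was 0.02 for the 28 genes and -0.02 for all tested genes. The fold changes ran from -0.56 (ABCG1) to 0.60 (NPC2), so no gene of the group changed 2-fold. The genes that were higher were ACAT2, MVK, PMVK, FDPS, NSDHL and NPC2, and the genes that were lower were INSIG1 and ABCG1. Most of these calls ended in some of the fits with 1 library fewer. Without GPT1 replicate 1, GPT1 replicate 3 or control replicate 1, the number of called genes was 2, 1 and 2 of 28, in fits where the calls over the whole table fell to 1586, 1443 and 2565 against 4430 with all libraries. The number was 7, 9 and 7 of 28 without GPT1 replicate 2, control replicate 2 or control replicate 3. Over the whole table those fits called 4597, 4907 and 3981 genes.

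**Figure D1:**
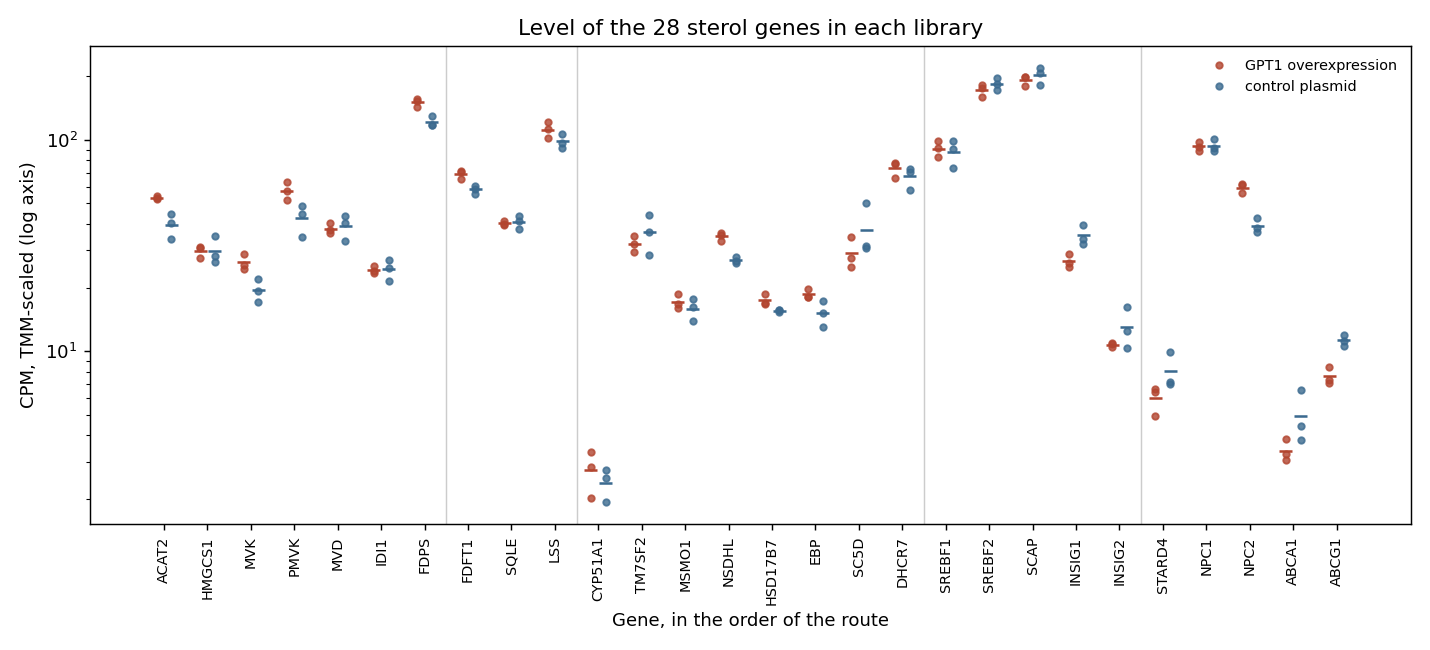
CPM (log axis) of each of the 28 genes in each library, with GPT1 libraries left (red) and control libraries right (blue) and short lines for the means of 3 libraries; vertical lines separate the roles. Levels ran from a few CPM for CYP51A1, ABCA1 and STARD4 to over 150 CPM for FDPS, SREBF2 and SCAP in the GPT1 libraries, and the separation between groups was small beside the range between genes.

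The mevalonate arm held most of the rises. ACAT2, the cytosolic thiolase that joins acetyl-CoA units, had 53.1, 52.7 and 54.2 CPM in the GPT1 libraries and 40.4, 44.5 and 33.8 CPM in the controls. All GPT1 values lay above all control values, and the control values spread more widely. This is a log2 fold change of 0.43 ± 0.11 (SE, adjusted p = 0.0212, edgeR). MVK, mevalonate kinase, had 28.9, 24.6 and 25.6 CPM in the GPT1 libraries and 19.2, 22.1 and 17.1 CPM in the controls (0.44 ± 0.13, adjusted p = 0.0311, edgeR). PMVK, the kinase of the next step, had 62.8, 52.0 and 57.3 CPM in the GPT1 libraries and 44.4, 48.5 and 34.8 CPM in the controls (0.43 ± 0.13, adjusted p = 0.0348, edgeR). In both kinase genes the groups did not overlap, but for PMVK the lowest GPT1 library stood close to the highest control. FDPS, the farnesyl diphosphate synthase at the branch point to prenylation, had 156, 143 and 153 CPM in the GPT1 libraries and 117, 130.2 and 117 CPM in the controls (0.31 ± 0.08, adjusted p = 0.0227, edgeR). In fold terms these 4 rises were 1.24 to 1.35 times. All 4 calls ended without GPT1 replicate 1 (adjusted p = 0.0707 to 0.136), without GPT1 replicate 3 (0.0868 to 0.108) and without control replicate 1 (0.0527 to 0.0819), with log2 fold changes that stayed between 0.29 and 0.47.

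For the other 3 enzymes of the arm the groups overlapped. HMGCS1, the synthase that makes HMG-CoA, had 27.5, 30.9 and 30.7 CPM in the GPT1 libraries and 28.2, 26.4 and 35.0 CPM in the controls. IDI1, the isopentenyl diphosphate isomerase, had 24.1, 25.2 and 23.3 CPM in the GPT1 libraries and 21.4, 24.7 and 27.0 CPM in the controls. Control replicate 3 was the highest library of all 6 for both genes. MVD, the decarboxylase that makes isopentenyl diphosphate, had 40.6, 36.2 and 37.3 CPM in the GPT1 libraries and 40.2, 43.8 and 33.2 CPM in the controls, control replicate 3 being the lowest. The 95% interval of the fold was 0.822 to 1.21 for HMGCS1, 0.832 to 1.19 for IDI1 and 0.812 to 1.17 for MVD. Of the 7 genes of the arm 4 were thus called higher (57.1%), against 10.5% of all tested genes. The value of HMGCS1 depended on the processing: it changed sign under 9 of 17 alternatives, and once each library was corrected for its trends with length and GC content it was called higher (0.21 ± 0.08, adjusted p = 0.0448, edgeR).

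MVK shares its start region with MMAB, a cobalamin adenosyltransferase gene that runs the other way and overlaps it by 620 bases. MMAB stood at 49.1 ± 1.58 CPM in the GPT1 libraries and 29.2 ± 4.07 CPM in the controls (SD, n = 3 each; log2 fold change 0.75 ± 0.12, adjusted p = 0.0022, edgeR), a rise larger in value than that of MVK. Whether reads were counted by strand is not stated, so reads from the shared bases cannot be assigned to 1 of the genes with certainty. ACAT2 overlaps TCP1 by 558 bases at its end, and TCP1, a chaperonin subunit gene, stood at 324 ± 15.1 CPM in the GPT1 libraries and 289 ± 12.0 CPM in the controls (0.17 ± 0.08, adjusted p = 0.134, edgeR). The processed pseudogenes named for FDPS, IDI1 and CYP51A1 averaged at most 0.340 CPM in either group, but the counting could still have split reads among such copies.

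At squalene synthesis and ring closure no gene was called. FDFT1, squalene synthase, had 71.1, 65.3 and 70.7 CPM in the GPT1 libraries and 60.7, 58.8 and 55.3 CPM in the controls. Its groups did not overlap (log2 fold change 0.24 ± 0.09 SE, adjusted p = 0.0631, edgeR). SQLE, squalene monooxygenase, a rate-limiting enzyme of the later route, had 39.8, 39.9 and 41.5 CPM in the GPT1 libraries and 43.5, 41.5 and 38.0 CPM in the controls. These values overlapped, and the 95% interval of the fold was 0.849 to 1.14. LSS, which closes the ring to lanosterol, had 121, 102 and 112 CPM in the GPT1 libraries and 97.1, 107 and 91.3 CPM in the controls (0.19 ± 0.10, adjusted p = 0.171, edgeR). Of these 3 genes 0 passed the edgeR test, 1 had an unadjusted p under 0.05, and DESeq2 and limma voom called 0.

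Among the 8 tailoring enzymes 1 was called (12.5%, against 25.1% of all tested genes). NSDHL, a sterol dehydrogenase that helps to remove the methyl groups of lanosterol, had 35.3, 33.3 and 36.1 CPM in the GPT1 libraries and 26.7, 27.8 and 26.1 CPM in the controls. Its groups were far apart for their spread (log2 fold change 0.38 ± 0.10 SE, adjusted p = 0.0218, edgeR; adjusted p = 0.0807, 0.106 and 0.0637 without GPT1 replicate 1, GPT1 replicate 3 and control replicate 1). The enzymes that act with NSDHL at these methyl groups were not called. MSMO1, the methyl oxidase, had 16.7, 15.9 and 18.6 CPM in the GPT1 libraries and 16.1, 13.9 and 17.7 CPM in the controls. HSD17B7, the ketoreductase, had 16.8, 17.0 and 18.7 CPM in the GPT1 libraries and 15.7, 15.6 and 15.4 CPM in the controls, groups that did not overlap (0.17 ± 0.11, adjusted p = 0.285, edgeR). EBP, the sterol isomerase, had 19.7, 18.1 and 18.1 CPM in the GPT1 libraries and 15.2, 17.2 and 13.0 CPM in the controls, again without overlap (0.30 ± 0.13, adjusted p = 0.114, edgeR).

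The remaining tailoring genes overlapped between the groups. DHCR7, the last reductase of the route, had 76.7, 66.1 and 77.4 CPM in the GPT1 libraries and 72.9, 70.5 and 58.1 CPM in the controls. SC5D, the sterol desaturase before it, had 25.0, 34.6 and 27.5 CPM in the GPT1 libraries and 30.6, 31.3 and 50.1 CPM in the controls, where control replicate 3 stood alone at the top. TM7SF2, a sterol reductase, showed the opposite, with 34.9, 29.4 and 31.98 CPM in the GPT1 libraries and 36.7, 44.3 and 28.6 CPM in the controls, control replicate 3 being the lowest of all 6. CYP51A1, the demethylase that first acts on lanosterol, was the lowest of the enzymes in CPM, with 2.03, 3.34 and 2.84 CPM in the GPT1 libraries and 2.51, 1.94 and 2.73 CPM in the controls. Per kilobase of the longest annotated transcript it averaged 0.853 CPM in the GPT1 libraries and 0.745 CPM in the controls, against 13.6 and 13.8 CPM for SQLE and 74.8 and 60.3 CPM for FDPS, which was the highest of the 28 genes per kilobase in both groups. The transcript forms that these cells use are not known from gene counts, so the values per kilobase are approximate. Another protein-coding gene annotated on the same strand shares 22645 bases with CYP51A1 and had 0 counts in all 6 libraries. How reads from shared bases were counted is not stated, so the level of CYP51A1 is uncertain.

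**Figure D2:**
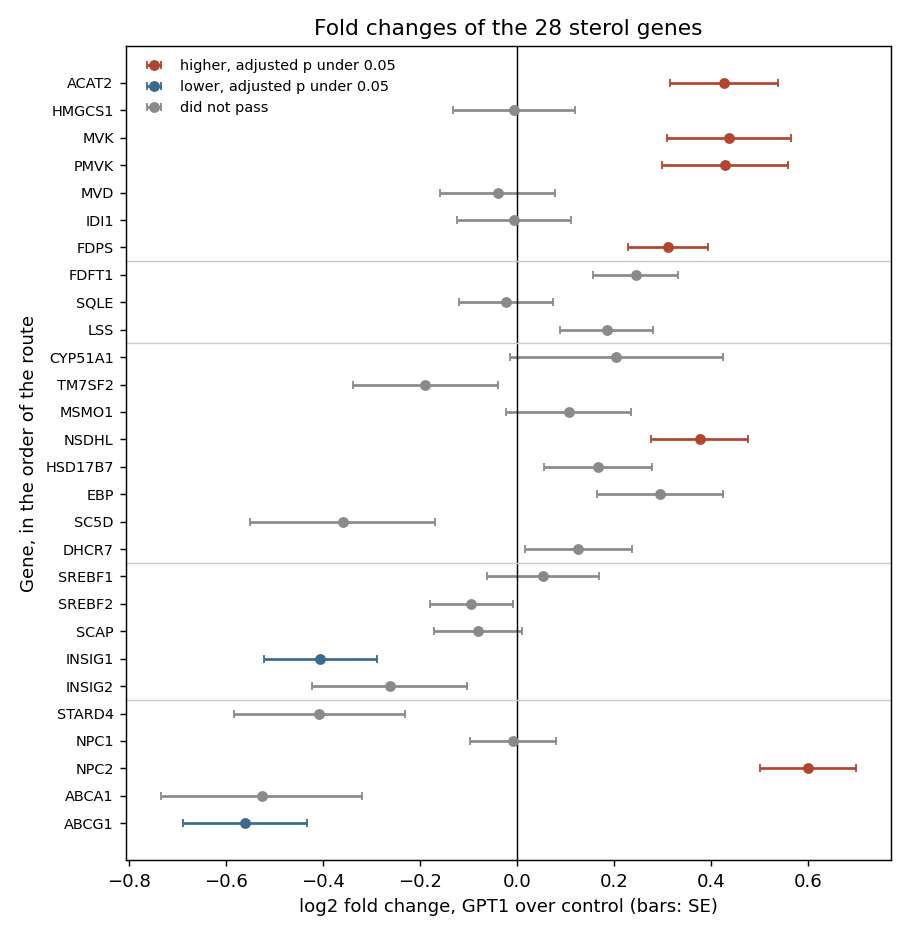
Log2 fold change of GPT1 over control libraries for each gene, with bars for the SE of the edgeR fit from 3 libraries a group; red and blue points passed an adjusted p of 0.05. The 5 enzyme genes past the threshold were all higher, between 0.31 and 0.44, NPC2 stood highest at 0.60, and INSIG1 and ABCG1 were lower.

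Summed over the route, the changes were small. The 18 enzyme genes together had 853, 789.7 and 837 CPM in the GPT1 libraries and 729, 769.7 and 694 CPM in the controls. The lowest GPT1 library thus lay just above the highest control, and the mean was 827 ± 32.9 CPM in the GPT1 libraries and 731 ± 37.7 CPM in the controls (SD, n = 3 each), a ratio of 1.13. Of these 18 genes 5 were called higher (27.8%, against 10.5% of all tested genes) and 0 lower (against 14.6%) by edgeR. In either direction 27.8% were thus called, against 25.1% of all tested genes. At an unadjusted p under 0.05, 0 were lower, and DESeq2 and limma voom also called 5 of them and 0 lower. Their median log2 fold change was 0.18, against -0.02 for all tested genes. The mevalonate arm summed to 394, 365 and 382 CPM in the GPT1 libraries and 311, 340.2 and 298 CPM in the controls, a ratio of 1.20. FDPS alone made up 143 to 156 CPM of that sum in the GPT1 libraries. The ratio was 1.12 for squalene synthesis and ring closure and 1.04 for the tailoring enzymes. The gap between the groups was thus widest in the arm that is shared with prenylation, ubiquinone and dolichol; whether the arms differ from each other was not tested.

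**Figure D3:**
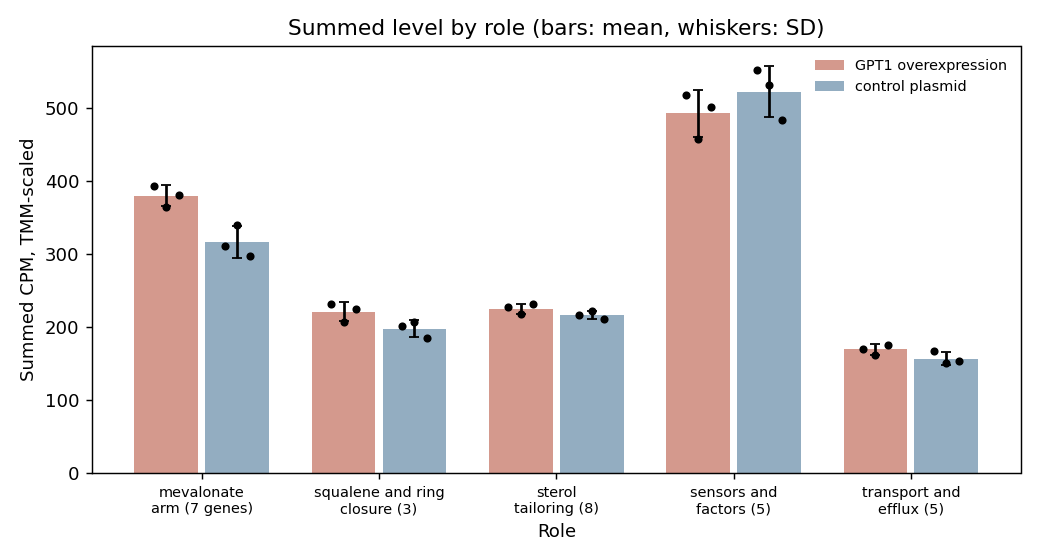
Summed CPM of the genes of each role, with bars for the mean of 3 libraries, whiskers for the SD and points for single libraries, GPT1 left (red) and control right (blue). The mevalonate arm stood at 365 to 394 CPM in the GPT1 libraries and 298 to 340.2 CPM in the controls, whereas the sums of the sensors and of the transport genes overlapped between the groups.

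The transcription factors of the response and their escort overlapped between the groups. SREBF2, the gene of SREBP-2, which drives the synthesis genes, had 182, 159 and 175 CPM in the GPT1 libraries and 195, 184 and 172 CPM in the controls. SREBF1, the gene of SREBP-1, which acts more on fatty acid genes, had 98.3, 82.6 and 91.9 CPM in the GPT1 libraries and 90.7, 98.2 and 73.6 CPM in the controls. SCAP, the escort of both, had 198, 179 and 199 CPM in the GPT1 libraries and 219.6, 207 and 183 CPM in the controls. RAI1, on the other strand, overlaps SREBF1 by 1055 bases and was at 81.5 ± 2.43 CPM in the GPT1 libraries and 99.3 ± 10.6 CPM in the controls (SD, n = 3 each; -0.29 ± 0.10, adjusted p = 0.0486, edgeR). The 95% interval of the fold was 0.822 to 1.07 for SREBF2, 0.871 to 1.24 for SREBF1 and 0.824 to 1.09 for SCAP.

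INSIG1, the retention protein of SCAP that is itself induced by SREBPs, was the regulator that fell. It had 28.8, 26.0 and 25.0 CPM in the GPT1 libraries and 33.9, 32.2 and 39.7 CPM in the controls. The groups did not overlap, and the mean was 26.6 ± 1.95 CPM in the GPT1 libraries and 35.3 ± 3.91 CPM in the controls (SD, n = 3 each) (fold 0.755, 95% interval 0.632 to 0.901; log2 fold change -0.41 ± 0.12 SE, adjusted p = 0.0288, edgeR). The call ended without any 1 of 5 libraries: the adjusted p was 0.0585, 0.0723 and 0.128 without GPT1 replicates 1, 2 and 3, and 0.0653 and 0.0563 without control replicates 1 and 3, with log2 fold changes from -0.46 to -0.30. INSIG2, its relative that is less dependent on SREBPs, had 10.8, 10.98 and 10.5 CPM in the GPT1 libraries and 12.4, 10.3 and 16.1 CPM in the controls, which overlapped. INSIG1 was thus lower in the same libraries in which 5 enzyme genes were higher.

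Of the transport and efflux genes, NPC2 gave the firmest change of all 28. NPC2, the soluble lysosomal protein that hands cholesterol to the membrane protein NPC1, had 61.5, 55.8 and 61.1 CPM in the GPT1 libraries and 42.8, 38.1 and 36.8 CPM in the controls. The groups were widely separated, with a fold of 1.51 (95% interval 1.30 to 1.76; log2 fold change 0.60 ± 0.10 SE, adjusted p = 0.00304, edgeR). Its call held under all 17 alternatives, with log2 fold changes from 0.56 to 0.68 and adjusted p up to 0.0259. ISCA2, an iron-sulfur assembly gene on the other strand that overlaps NPC2 by 458 bases, stood at 46.5 ± 3.03 CPM in the GPT1 libraries and 44.3 ± 4.53 CPM in the controls (0.07 ± 0.11, adjusted p = 0.653, edgeR). NPC1 had 92.6, 88.6 and 98.1 CPM in the GPT1 libraries and 101, 91.0 and 88.3 CPM in the controls, values that overlapped (95% interval of the fold 0.869 to 1.14). RMC1, on the other strand, overlaps NPC1 by 25624 bases of its gene body. It was at 46.4 ± 2.14 CPM in the GPT1 libraries and 37.9 ± 0.93 CPM in the controls (0.29 ± 0.09, adjusted p = 0.0423, edgeR). This rise did not pass under 9 of 17 alternatives. Because the use of strand is not stated, reads from the shared bases cannot be assigned to NPC1 or RMC1 with certainty.

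The sterol exporters were lower in value. ABCG1, which moves cholesterol out to lipoproteins and is induced by LXR, had 8.43, 7.08 and 7.32 CPM in the GPT1 libraries and 11.2, 10.6 and 11.9 CPM in the controls. It fell by 0.56 on the log2 scale (SE 0.13, adjusted p = 0.0131, edgeR; 0.0635 without GPT1 replicate 3), and its groups did not overlap. ABCA1, the exporter to lipid-poor apolipoproteins and likewise an LXR target, had 3.06, 3.84 and 3.27 CPM in the GPT1 libraries and 4.43, 3.81 and 6.57 CPM in the controls. GPT1 replicate 2 lay above control replicate 2 by a small margin, and control replicate 3 was the highest (log2 fold change -0.53 ± 0.21, adjusted p = 0.0835, edgeR; 0.0296 without control replicate 2). Its log2 fold change was -0.27 without control replicate 3. STARD4, a soluble sterol carrier and SREBP target, had 4.96, 6.62 and 6.44 CPM in the GPT1 libraries and 7.0, 7.11 and 9.94 CPM in the controls, without overlap (-0.41 ± 0.18, adjusted p = 0.11, edgeR).

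Control replicate 3 stood apart from the other controls by the base composition of transcripts, which bears on many of these genes. It was the highest control for 10 of the 28 genes, whose transcripts had a median GC content of 40.6%, and the lowest for the other 18, with a median of 56.5%. Over the 28 genes its log2 difference from the mean of the other 2 controls correlated with GC content at a Spearman coefficient of -0.85, and over 17436 tested genes at -0.61; genes of 1 library are not independent, and depth, library and composition are shared. SC5D (38.6% GC) lay 0.69 above the other controls on the log2 scale and TM7SF2 (64.2% GC) 0.49 below them. Among the called genes, PMVK, ACAT2 and MVK lay 0.41, 0.33 and 0.27 below, INSIG1 lay 0.26 above, and FDPS, NSDHL, NPC2 and ABCG1 lay within 0.14. Without control replicate 3, 7 of the 28 genes were called, all of them among the 8 called with it, and INSIG1 was the one not called.

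**Figure D4:**
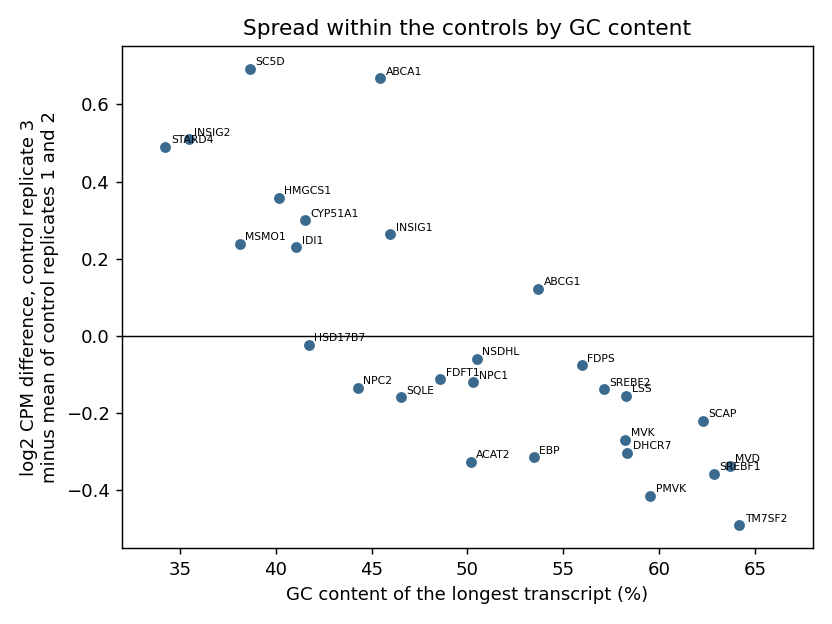
Log2 CPM of control replicate 3 minus the mean of control replicates 1 and 2, for each of the 28 genes, against the GC content (%) of its longest GENCODE 29 transcript. AT-rich transcripts such as SC5D, INSIG2 and STARD4 lay above 0 and GC-rich ones such as TM7SF2, PMVK and SREBF1 below it.

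The log2 fold change correlated with transcript length at a Spearman coefficient of -0.45 over the 28 genes and -0.33 over 17436 tested genes. With GC content the coefficients were 0.18 and 0.31. When each library was corrected for its trends with transcript length and GC content, more of the genes passed. 13 of 28 were called (46.4%), 10 higher (35.7%) and 3 lower (10.7%), against 34.6% of all tested genes, 19.9% higher and 14.8% lower. Over the whole table this correction gave 3502 higher and 2608 lower genes, beside 1858 and 2572 without it. All 8 genes called without the correction were called with it, in the same direction. HMGCS1 (0.21 ± 0.08, adjusted p = 0.0448), FDFT1 (0.20 ± 0.06, adjusted p = 0.0324), LSS (0.25 ± 0.07, adjusted p = 0.0123) and HSD17B7 (0.30 ± 0.10, adjusted p = 0.0396) also passed as higher, and TM7SF2 (-0.26 ± 0.09, adjusted p = 0.0319) as lower, by edgeR. ABCA1 moved to -0.25 and STARD4 to 0.02, both without a call, while INSIG1 (-0.39), ABCG1 (-0.60), NPC2 (0.56), MVK (0.46) and ACAT2 (0.39) stayed close to their uncorrected values. The other 3 called enzyme genes had smaller values with the correction: FDPS 0.20 against 0.31 without it, NSDHL 0.26 against 0.38 and PMVK 0.30 against 0.43. The correction is fitted to the difference between the groups as well as within them, so it can remove or add a difference of the groups that follows length or GC content.

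**Figure D5:**
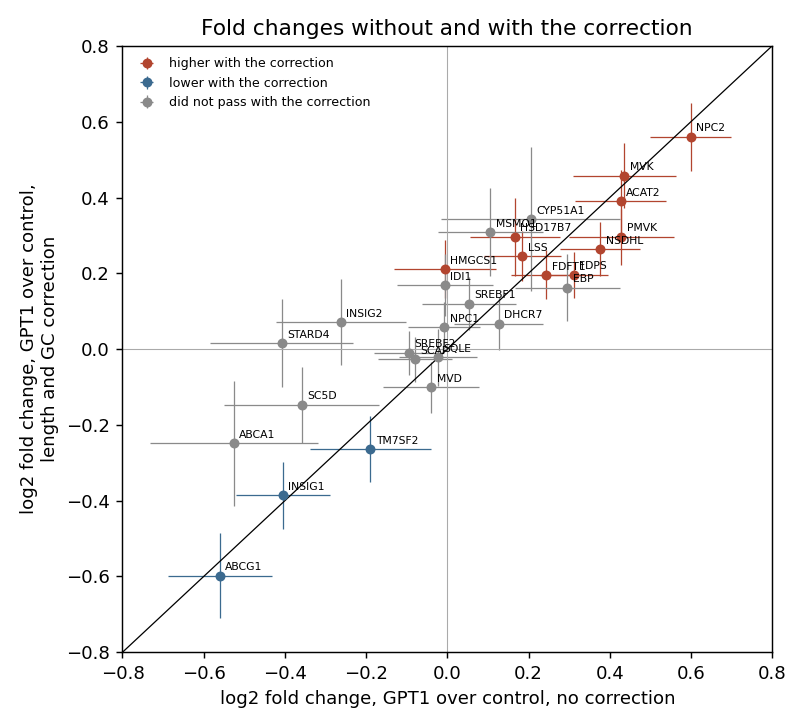
Log2 fold change of GPT1 over control libraries with the length and GC correction (vertical) against the value without it (horizontal), with SE bars and the line of equality; colours give the call with the correction. STARD4, INSIG2, SC5D and ABCA1 lie above the line, and NPC2, INSIG1 and ABCG1 lie near it.

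Related genes outside the 28 showed no common direction. Of the 10 genes of SREBP proteolysis and sterol-regulated degradation 0 passed the edgeR test, with 3 lower at an unadjusted p under 0.05, 1 called lower by DESeq2 and 0 by limma voom. The nearest was MBTPS2, the site-2 protease that frees SREBPs, at 51.3 ± 5.64 CPM in the GPT1 libraries and 67.2 ± 11.3 CPM in the controls (SD, n = 3 each; log2 fold change -0.39 ± 0.13 SE, adjusted p = 0.051, edgeR). Its log2 fold change was -0.0044 with the length and GC correction and -0.24 without control replicate 3. Of 10 lipogenic SREBP targets 1 rose (10%, against 10.5% of all tested genes) and 1 fell (10%, against 14.6%). ACLY, which makes cytosolic acetyl-CoA from citrate, stood at 433 ± 19.1 CPM in the GPT1 libraries and 366 ± 21.5 CPM in the controls (0.24 ± 0.08, adjusted p = 0.0472, edgeR), and the elongase gene ELOVL6 at 19.9 ± 2.21 CPM in the GPT1 libraries and 28.96 ± 7.31 CPM in the controls (-0.54 ± 0.17, adjusted p = 0.04, edgeR). ACLY did not pass in fits that left out replicate 1 or 3 of either group (adjusted p up to 0.19). ELOVL6 did not pass when replicate 1 or 3 of the GPT1 libraries or replicate 3 of the controls was left out (up to 0.139), its log2 fold change being -0.30 without control replicate 3. With the length and GC correction ELOVL6 stood at -0.21 (adjusted p = 0.0923, edgeR) and was not called.

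Of 15 genes of the branches that leave the mevalonate arm 4 were higher and 1 lower by edgeR (33.3% called, against 25.1% of all tested genes). DESeq2 called 3 of them and limma voom 5. RCE1, the protease that trims prenylated proteins, stood at 34.8 ± 1.4 CPM in the GPT1 libraries and 24.9 ± 2.19 CPM in the controls (log2 fold change 0.48 ± 0.11 SE, adjusted p = 0.0123, edgeR; 0.0678 without GPT1 replicate 3). DOLK, dolichol kinase, stood at 27.6 ± 1.97 CPM in the GPT1 libraries and 19.0 ± 3.14 CPM in the controls (0.54 ± 0.14, adjusted p = 0.0195, edgeR; 0.072 and 0.0832 without GPT1 replicates 1 and 3). SRD5A3, which makes dolichol from polyprenol, rose from a low level (5.51 ± 0.90 CPM in the GPT1 libraries and 3.86 ± 0.13 CPM in the controls), and its call ended without GPT1 replicate 2 or 3 or control replicate 1 or 2 (adjusted p up to 0.0973) and in DESeq2 (adjusted p = 0.0513). NUS1, a subunit of the dehydrodolichyl diphosphate synthase, was lower (97.7 ± 6.12 CPM in the GPT1 libraries and 124 ± 17.2 CPM in the controls, adjusted p = 0.0376, edgeR), but its log2 fold change was -0.34 without a correction and -0.0013 with the length and GC correction. Its call also ended without GPT1 replicate 1 or 3 or control replicate 1 or 3 (adjusted p up to 0.146).

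Among 17 tested genes of sterol uptake, esters and transport, 5 were lower (29.4%, against 14.6% of all tested genes) and 1 higher (5.88%, against 10.5%) by edgeR, while DESeq2 and limma voom each called 5 genes, 4 of them lower. LRP8, a lipoprotein receptor, stood at 16.6 ± 1.77 CPM in the GPT1 libraries and 29.3 ± 1.43 CPM in the controls (log2 fold change -0.82 ± 0.12 SE, adjusted p = 0.00138, edgeR), with no overlap between the groups. NCEH1, a hydrolase of cholesterol esters, stood at 11.2 ± 0.88 CPM in the GPT1 libraries and 16.9 ± 1.42 CPM in the controls (-0.58 ± 0.12, adjusted p = 0.01, edgeR). STARD5, a sterol carrier related to STARD4, fell by 0.62 on the log2 scale (adjusted p = 0.0175, edgeR; 0.0506 without GPT1 replicate 1). NPC1L1, the intestinal sterol importer, was barely detected, at 1.51 ± 0.33 CPM in the GPT1 libraries and 0.755 ± 0.013 CPM in the controls (0.99 ± 0.25, adjusted p = 0.0196, edgeR), and did not pass without GPT1 replicate 1, GPT1 replicate 3 or control replicate 1 (adjusted p up to 0.0875). Of 9 tested genes of the LXR list 1 passed (11.1%, against 25.1% of all tested genes). NR1H2, which encodes the receptor LXR-beta, stood at 44.6 ± 5.28 CPM in the GPT1 libraries and 33.0 ± 4.36 CPM in the controls (0.43 ± 0.13, adjusted p = 0.0317, edgeR; up to 0.138 without GPT1 replicate 1, GPT1 replicate 3 or control replicate 1), while its known target ABCG1 was lower.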

How the data were processed

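The data were raw read counts per Ensembl gene for 6 mRNA libraries, whole numbers that the authors deposited as 1 table. Reads were aligned with HISAT2 2.0 to GRCh38, per the submitters' processing notes; on the counter, its annotation and its use of strand nothing is stated. Symbols came from a name table that matched 60463 of 60664 identifiers (201 had none), and transcript length and GC content from the longest GENCODE 29 transcript, with values for 98.9% of the tested genes and all 28 members. Libraries were grouped by their titles. The tests used edgeR 4.0.16 in R 4.3.3: filterByExpr kept 17638 genes, TMM factors scaled the libraries, and glmQLFTest (two-sided) was adjusted by Benjamini-Hochberg with a threshold of 0.05. The common biological coefficient of variation was 0.119. SEs and 95% intervals were derived from each gene's quasi-likelihood F. Replicate pairs differed beyond sampling noise (chi-square per degree of freedom 9.98 to 30.8), so none were merged as repeat runs of 1 library. This does not show that they came from separate cultures.

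The members and lists were chosen with earlier results of these data known. The text names GPT, all 28 members, up to 4 genes with the smallest adjusted p from each related list, and genes that overlap a member. CYP8B1 and the cell type markers that are named singly were chosen after their values were seen. Tried as alternatives were DESeq2 1.42.0, limma voom (3.58.1), other scaling factors and filters, omission of GPT or of single libraries, a threshold of 0.01, a block for replicate number, and a per-library smooth fit (mgcv 1.9.3) of length and GC content used as an offset. The gene test and the offset were tested on simulated data. Some genes of the route are not reported here.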

Additional observations from a re-analysis of the deposited data

How the results depend on the processing

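Under the 17 alternatives 6 of the 28 genes, NPC2, CYP51A1, DHCR7, EBP, SCAP and SREBF2, kept their direction and their side of the threshold, and 22 changed one of them under at least 1. Of the 28 genes 8 were called; the number was 5 with the replicate number as a block, 13 with the length and GC correction, 1 (NPC2) at an adjusted p of 0.01, and 1 to 9 with single libraries left out. Among all tested genes 4430 were called, 1172 at an adjusted p of 0.01, and 1443 to 4907 with single libraries left out. Under the block FDPS (adjusted p = 0.0617), NSDHL (0.0586) and INSIG1 (0.0527) did not pass, nor did SRD5A3 (0.0547), NUS1 (0.0617), ACLY (0.136) and RMC1 (0.118) among the other genes named. Libraries of the same number did not deviate together (correlations of 0.14, -0.28 and -0.08 for numbers 1, 2 and 3). The deviations also carry trends of single libraries, such as that of control replicate 3 with GC content. They therefore cannot decide whether the numbers pair the libraries.

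Genes near 0 changed sign. HMGCS1 was at -0.01 (log2) and at 0.0067 with DESeq2 size factors, 0.034 with upper quartile factors, 0.0062 with DESeq2, 0.011 with limma voom, 7e-04 with the replicate block, 0.21 with the length and GC correction and 0.21 with both. IDI1 (-0.01) stood in that order, without the block alone, at 0.0062, 0.033, 0.0058, 0.0057, 0.17 and 0.17. NPC1 (-0.01) was at 0.0057, 0.031 and 0.0042 with DESeq2 size factors, upper quartile factors and DESeq2, and at 0.058 with the correction, alone and blocked. SQLE was at 0.016 with upper quartile factors. With the correction, alone and blocked, INSIG2 was at 0.071 and 0.073 and STARD4 at 0.016 and 0.013. With single libraries left out, the ranges were -0.0886 to 0.136 for HMGCS1, -0.127 to 0.048 for MVD, -0.0839 to 0.0861 for IDI1, -0.0584 to 0.031 for SQLE, -0.0399 to 0.143 for SREBF1 and -0.0469 to 0.0629 for NPC1. The cause was not tested. The SEs of the log2 fold changes were largest for CYP51A1 (0.22), ABCA1 (0.21) and SC5D (0.19) among the 28 genes.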

Other observations

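Genes of neighbouring sterol and acetoacetyl-CoA chemistry were measured as well. HSD3B7, an enzyme of bile acid synthesis, stood at 5.68 ± 0.61 CPM in the GPT1 libraries and 3.49 ± 0.66 CPM in the controls (SD, n = 3 each; log2 fold change 0.69 ± 0.17 SE, adjusted p = 0.0173, edgeR; 0.077 without GPT1 replicate 3). It was the 1 called gene among 4 tested of 8 oxysterol and bile acid genes (25%, against 25.1% of all tested genes). CYP8B1, of the same route, had 0 counts in all 6 libraries. Of 4 tested genes of mitochondrial acetoacetyl-CoA and ketone metabolism, 0 passed edgeR, 0 had an unadjusted p under 0.05, and DESeq2 and limma voom called 0. That list summed to 268 to 283 CPM in the GPT1 libraries and 269 to 285 CPM in the controls, beside the rise of ACAT2, the cytosolic thiolase.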
